A study of Mus musculus with 3 samples.

Results

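Gastric corpus organoids labelled as lacking Gpx4 were compared with organoids grown from Mist1+ cells. The comparison has 1 library on each side, so 2 of the 3 libraries of the study enter it, and the values of the other library, Mist1-, are printed beside them. Organoids are epithelial spheres grown from tissue cells in a gel. These came from the stomach corpus of mice of about 8 weeks, and each culture also has the label P5, whose meaning is not given in the sources used here. All mice carried Mist1 Cre/ERT2, a tamoxifen-inducible Cre recombinase under the Mist1 gene, together with an RFP reporter that Cre switches on (RFP LSL). The Mist1- and Mist1+ organoids have the genotype label WT, and the Gpx4 KO-Mist1+ organoids came from mice that also had floxed Gpx4 (Gpx4 F/F). Cre driven by Mist1 acts only in cells that have used that gene, and when recombination was induced is not given in the sources used here. All cultures were kept in Matrigel in a medium for proliferation. Genes with an FPKM (a count set against the gene's exonic length and the library's size) of at least 1 in Mist1+ or in the library labelled Gpx4 KO-Mist1+ were compared, which left 13038 of 56691 genes.

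With 1 library a group there is no replicate, no test across cultures and no p-value, and every difference describes these libraries. Log2 ratios are of FPKM plus 1, labelled knockout over Mist1+, and a gene at least 2-fold apart on that scale is called higher or lower. A fold compares counts after scaling by library total. The bracket after it is an exact 95% interval, by a binomial split of both counts, and covers counting error only. Where 3 FPKM values stand together they belong to Mist1-, Mist1+ and the library labelled Gpx4 KO-Mist1+, in that order.

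Gpx4 uses glutathione to reduce lipid hydroperoxides inside membranes and so holds back ferroptosis, a cell death driven by iron and lipid peroxidation. Cells that meet less cystine, less glutathione or more iron are known to depend more on it. Mist1, encoded by Bhlha15, is a transcription factor of secretory cells that in the corpus marks chief cells, the pepsinogen-making cells at the gland base, and some isthmus cells. Injured corpus glands can lose chief cell features and gain mucous, metaplastic ones.

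The library labelled a Gpx4 knockout did not have less Gpx4 than Mist1+. It had 4399, 1998 and 2569 counts in Mist1-, Mist1+ and the labelled knockout, or 171, 71.6 and 90.9 FPKM, and was thus 1.27-fold higher (1.197 to 1.35) than in Mist1+. The counts cover the whole gene, so exons that a deletion leaves in place are included and the count is no check of the deleted part. The name labelled knockout is used here only as the label. Bhlha15 was at 5.4, 10.2 and 6.46 FPKM, 1.59-fold lower (1.39 to 1.81) in the labelled knockout than in Mist1+ and close to its Mist1- level.

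The libraries held 14943918, 16187378 and 16396693 counts, and mitochondrially encoded genes took 3.57% to 5.14% of them. Over the 13038 genes the median log2 ratio was -0.10, with 5313 genes above 0 and 7702 below. Median ratio scaling, which sets the typical gene to no difference, moves that median by 0.10. Exonic length and log2 ratio had a Spearman rho of -0.01 across genes, which are not independent replicates. In total 642 genes (4.92%) were called higher in the labelled knockout and 366 (2.81%) lower, and of these 120 and 31 reached 4-fold. Of the higher genes 273 were below 1 FPKM in Mist1+ and so passed the filter only through the labelled knockout, and 162 of the lower ones passed only through Mist1+. Of the 642 higher genes 610 were also above their Mist1- level, and of the 366 lower genes 280 were also below it. The Mist1+ library is 1 side of every ratio here, so a value peculiar to that library would enter all of them. Within 0.01 of the 2-fold line on the log2 scale lay 49 genes. The list members nearest to it were Inhbb just inside, at 0.49, 0.55 and 2.11 FPKM, and Lrig3 just outside, at 4.68, 5.74 and 12.4 FPKM, with Rrp12 just outside on the lower side, at 6.26, 7.15 and 3.08 FPKM.

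**Figure D1:**
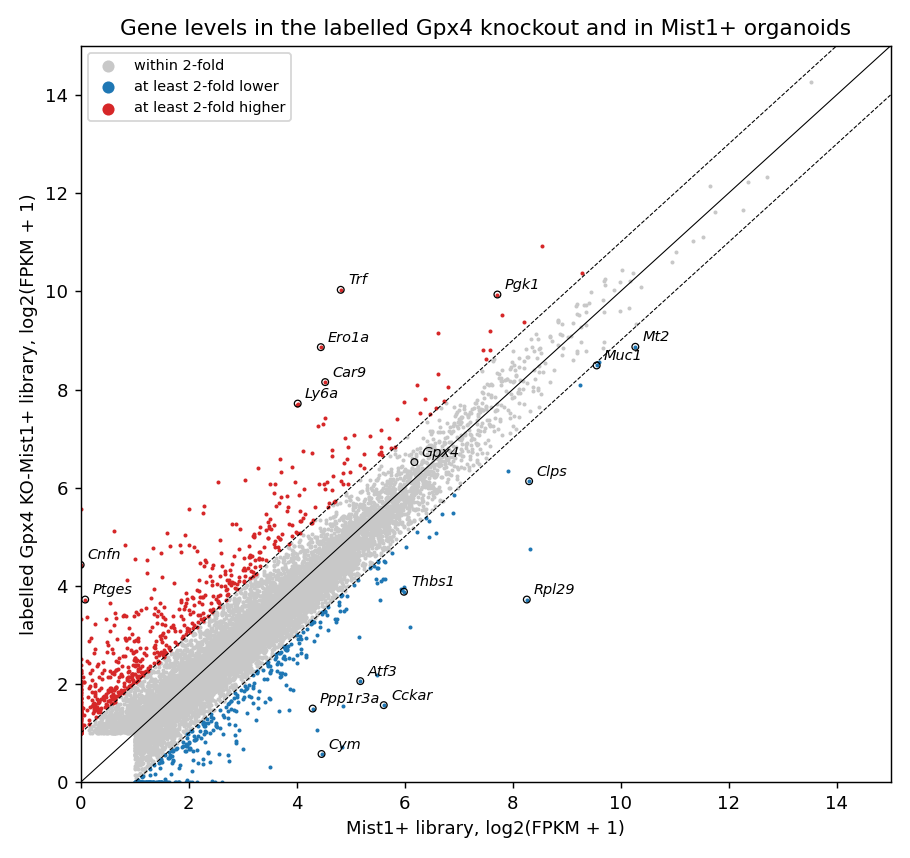
Level of each of the 13038 genes in the Mist1+ library (x axis) and in the labelled knockout (y axis), both as log2(FPKM + 1). Each point is a gene, the solid line marks equal levels and the dashed lines a 2-fold difference: 642 genes lie on or above the upper dashed line and 366 on or below the lower one, while Gpx4 lies near the solid line.

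To order the description, 70 lists of genes were drawn up by function, cell type or pathway. They hold 1450 genes, of which 1143 passed the filter, 154 were called higher and 42 lower. The list medians ran from -0.79 for DNA replication to 1.84 for squamous genes, beside -0.10 for all genes. The upper end depends on the setting: the squamous median was 0.53 on TPM, where the hypoxia list had the value 1.71. Many lists had members apart in opposite directions, as the plot of list members shows. Of 199 genes named here that were at least 2-fold apart, 73 were below that with a pseudocount of 5, mostly genes of low FPKM, and 3 under median ratio scaling, which were Cdc6, Muc1 and Nr4a2.

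**Figure D2:**
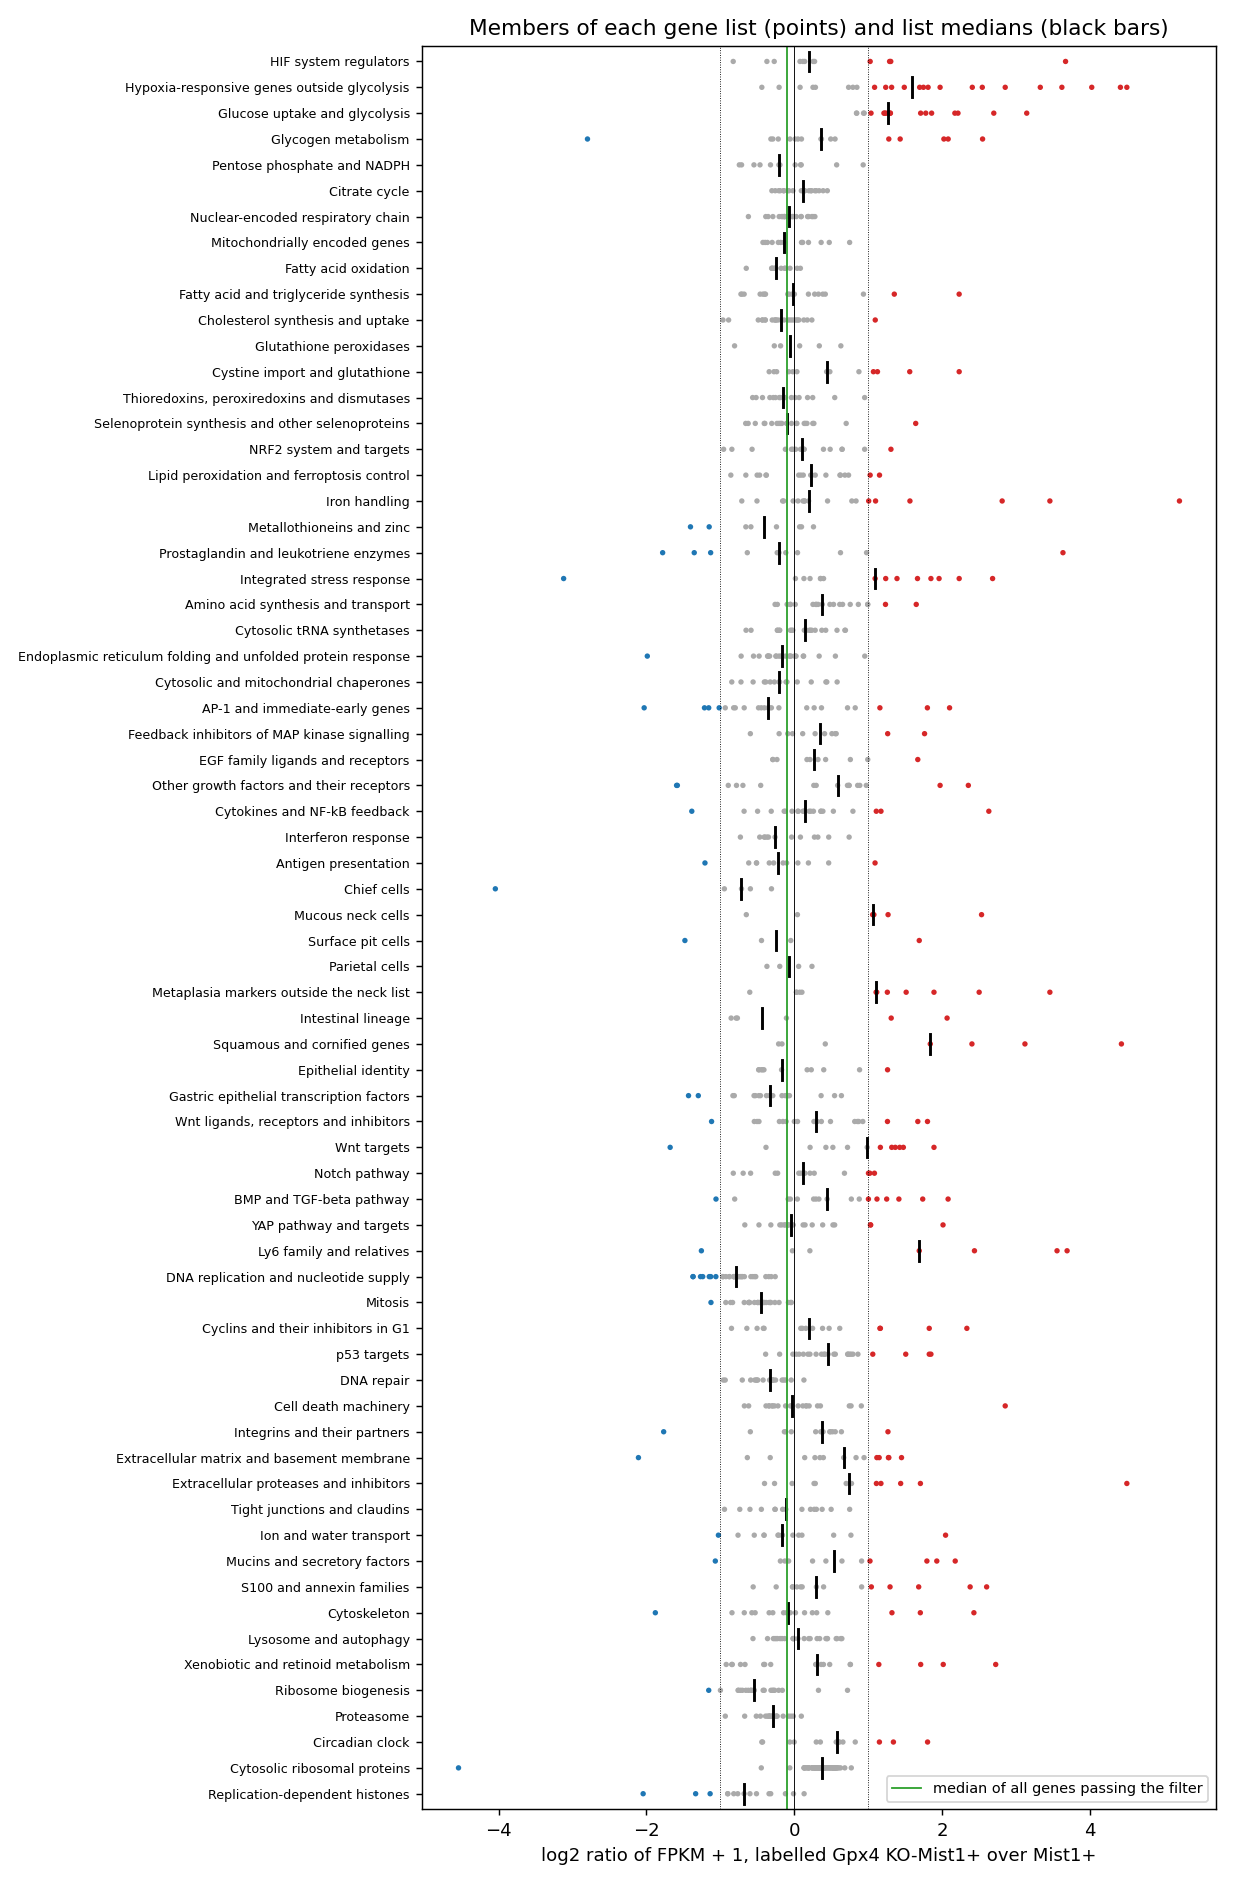
Log2 ratio (x axis, labelled Gpx4 KO-Mist1+ over Mist1+) of every list member that passed the filter, 1 line a list for the 68 lists with at least 4 such members. Red points are at least 2-fold higher, blue points at least 2-fold lower, black bars are list medians and the green line is the median of all genes, -0.10; hypoxia and glycolysis members lie mostly to the right and DNA replication members all to the left of 0.

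Hypoxia-responsive genes and glycolysis enzymes were among the most widely higher groups. In cells with oxygen, prolyl hydroxylases of the Egln family mark the HIF alpha subunits, and the Vhl protein then directs their breakdown. Stabilised HIF binds short ACGTG or GCGTG elements and turns on genes for glucose use, vessel growth and matrix modification. Of the 24 hypoxia-responsive genes outside glycolysis that passed the filter, 16 were called higher and 0 lower (median 1.59, and 1.21 with a pseudocount of 5). Of the 16, 3 passed the filter only through the labelled knockout. Among 19 genes of glucose uptake and glycolysis 15 were higher and 0 lower (median 1.27), and all 19 were above 0. Mist1+ was the lowest of the 3 libraries for 18 of the 24 and 17 of the 19, and the labelled knockout was the highest of the 3 libraries for 20 of the 24 and for 17 of the 19.

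Within the HIF system itself 2 hydroxylase genes were higher, while the subunit genes Hif1a and Epas1 were within 2-fold. Egln3 was at 43.8, 15.04 and 204 FPKM and Egln1 at 21.4, 16.9 and 43.2 FPKM. Both are HIF targets as well as its inhibitors. Egln2, which is not known as a HIF target, was at 28.3, 23.8 and 18.2 FPKM. Hif1a had 8.66, 15.6 and 17.1 FPKM and Epas1, the gene for HIF-2 alpha, 2.17, 4.07 and 5.14 FPKM. Hif3a, a HIF-inducible inhibitory relative, was at 0.04, 0.01 and 1.06 FPKM, and the repressor gene Bhlhe40 at 36.1, 35.3 and 87.8 FPKM. Vhl, at 12.8, 10.04 and 10.7 FPKM, differed little between Mist1+ and the labelled knockout. Of 12 regulators that passed the filter 4 were called higher and 0 lower (median 0.20), the higher ones being Egln1, Egln3, Hif3a and Bhlhe40. Hif3a passed the filter only through the labelled knockout, and its log2 ratio was 0.27 with a pseudocount of 5.

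The promoters of these genes often hold the HIF core letters, though so do many others. Windows of 250 bases before the start site were taken from RefSeq (GRCm38.p6) and searched on both strands for ACGTG and GCGTG, which can overlap each other. A match stood in 20 of 27 promoters of the hypoxia list (74.1%) and in 26 of 34 of the glycolysis list (76.5%), some genes having several promoters. These promoters belong to 19 of the 27 genes of the hypoxia list and 21 of the 22 of the glycolysis list. Genes that were not called are included. The share was 38.6% over all 32851 promoters, 56.8% over those of genes that passed the filter and 50.8% over those of all higher genes. In the DNA replication list, whose genes were below Mist1+, it was 62.5%. A match is a description of letters and not a site. Among the higher genes the window of Gpi1 holds no match. Vegfa, Pdk1, Hk1, Mxi1, Aldoa and Pkm each have a window without a match and another with one. The windows of 4 members with matches are shown. They belong to a secreted peptide, a collagen-modifying enzyme, and an early and a later step of glycolysis. The matches of either strand are in capitals, 5′ to 3′ along the gene's strand.
Adm, chr7:110627407-110627656, plus strand: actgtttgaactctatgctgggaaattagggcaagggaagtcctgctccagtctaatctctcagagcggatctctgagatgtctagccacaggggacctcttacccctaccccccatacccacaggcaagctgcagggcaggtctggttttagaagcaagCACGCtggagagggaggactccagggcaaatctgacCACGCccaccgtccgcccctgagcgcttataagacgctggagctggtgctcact
P4ha2, chr11:54100674-54100923, plus strand: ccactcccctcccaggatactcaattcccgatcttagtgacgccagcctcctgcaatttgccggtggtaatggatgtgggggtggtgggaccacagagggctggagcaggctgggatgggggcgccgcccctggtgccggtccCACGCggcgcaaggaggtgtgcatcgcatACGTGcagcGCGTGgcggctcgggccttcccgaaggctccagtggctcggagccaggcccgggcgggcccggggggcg
Hk2, chr6:82774455-82774704, minus strand: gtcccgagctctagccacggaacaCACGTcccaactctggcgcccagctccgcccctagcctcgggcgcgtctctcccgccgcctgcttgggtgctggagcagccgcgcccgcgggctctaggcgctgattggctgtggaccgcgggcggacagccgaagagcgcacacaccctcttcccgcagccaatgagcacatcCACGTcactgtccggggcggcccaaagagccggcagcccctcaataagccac
Pgk1, chrX:106186850-106187099, plus strand: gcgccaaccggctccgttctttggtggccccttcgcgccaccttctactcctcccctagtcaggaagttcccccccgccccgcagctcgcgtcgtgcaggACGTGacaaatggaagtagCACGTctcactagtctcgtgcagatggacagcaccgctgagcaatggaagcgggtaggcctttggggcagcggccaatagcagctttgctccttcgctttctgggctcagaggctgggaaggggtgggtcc

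The genes behind these promoters differed to unlike extents. Adm, the vasodilator peptide adrenomedullin, had 93, 20 and 735 counts, or 3.84, 0.76 and 27.7 FPKM, and was 36.3-fold higher (23.3 to 59.7). P4ha2, a subunit of the collagen prolyl hydroxylase, was at 4.39, 3.03 and 10.3 FPKM, and its partner P4ha1 at 27.1, 15.5 and 56.9 FPKM. Both hydroxylase subunits were highest in the labelled knockout.

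The hypoxia list held further large ratios. Ero1a, which oxidises disulphide bonds in the endoplasmic reticulum, was at 34.95, 20.8 and 465 FPKM and so 22.3-fold higher (21.3 to 23.4) than in Mist1+. Plod2, a lysyl hydroxylase of collagen, was at 3.76, 3.46 and 25.04 FPKM. For both genes Mist1- and Mist1+ lay within 2-fold of each other and the labelled knockout stood apart. Ndrg1, a stress-induced differentiation gene, was at 10.6, 3.88 and 48.1 FPKM, and Car9, the surface carbonic anhydrase, at 64.8, 22.1 and 283 FPKM. Bnip3, which directs mitophagy, was at 46.3, 19.99 and 151 FPKM, and Ddit4, an inhibitor of mTORC1, at 35.6, 18.6 and 103 FPKM. In these 4 genes the order was Mist1+ lowest, Mist1- between and the labelled knockout highest, as in 16 of the 24. Vegfa, the vessel growth factor, was at 21.7, 24.3 and 98.6 FPKM, with little difference between Mist1- and Mist1+. Ankrd37 and Fam162a were near their Mist1- levels in the labelled knockout, at 29.8, 7.71 and 27.3 FPKM and 201, 62.5 and 213 FPKM. Smaller values were those of Stc2 (23.5, 15.8 and 38.7 FPKM), Mxi1 (6.16, 5.37 and 14.9 FPKM) and Angptl4 (1.29, 0.59 and 2.38 FPKM). Members within 2-fold included Bnip3l at 44.9, 40.2 and 70.5 FPKM, Kdm3a at 9.1, 12.9 and 24 FPKM and Higd1a at 32.2, 12.5 and 15.2 FPKM. Plod1 at 2.52, 2.86 and 1.85 FPKM and the EGF receptor inhibitor gene Errfi1 at 36.3, 53.7 and 46.5 FPKM were the 2 members below 0. Car12, Lox and Loxl2 did not pass the filter.

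Glycolysis was higher along its length, from glucose entry to lactate export. The glucose transporter gene Slc2a1 was at 34.95, 24.3 and 61.4 FPKM, and the hexokinase genes Hk1 and Hk2 at 6.86, 7.81 and 20.7 FPKM and 10.1, 11.9 and 30.2 FPKM. For both hexokinases Mist1- and Mist1+ lay close together and the labelled knockout above them. Gpi1, the isomerase of the next step, was at 126, 73.8 and 271 FPKM, or 3.67-fold higher (3.57 to 3.76). Of the phosphofructokinases Pfkp, at 13.4, 8.26 and 30.8 FPKM, passed 2-fold, and Pfkl (0.84) and Pfkm (0.85) did not on the log2 scale. Pfkfb3, which makes the activator of phosphofructokinase, was at 1.84, 1.78 and 11.6 FPKM, or 6.48-fold higher (5.62 to 7.51). The aldolase genes were at 476, 224 and 735 FPKM for Aldoa and 7.01, 2.16 and 26.99 FPKM for Aldoc. Aldoc, the less abundant form, had the larger ratio, 3.15 beside 1.71 on the log2 scale.

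The lower steps followed the same direction. Pgk1, the first step that yields ATP, was at 466, 209.7 and 978 FPKM and 4.67-fold higher (4.55 to 4.78). Pgam1 stood at 114, 87.4 and 181 FPKM, Eno1 at 240.3, 111 and 264 FPKM and Pkm, pyruvate kinase, at 343, 191 and 449 FPKM. Eno1 in the labelled knockout was thus close to Mist1-. Tpi1 (389, 172 and 332 FPKM) and the lactate dehydrogenase gene Ldha (443, 199 and 382 FPKM) were above Mist1+ but below Mist1-, and neither reached 2-fold. Gapdh, at 39.8, 28.1 and 66.7 FPKM, has many processed copies and its count is uncertain. Slc16a3, the lactate exporter MCT4, was at 12.6, 3.29 and 26.9 FPKM and 8.18-fold higher (7.23 to 9.29). Pdk1, which shuts pyruvate out of the citrate cycle, was at 17.6, 16.3 and 40.9 FPKM.

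**Figure D3:**
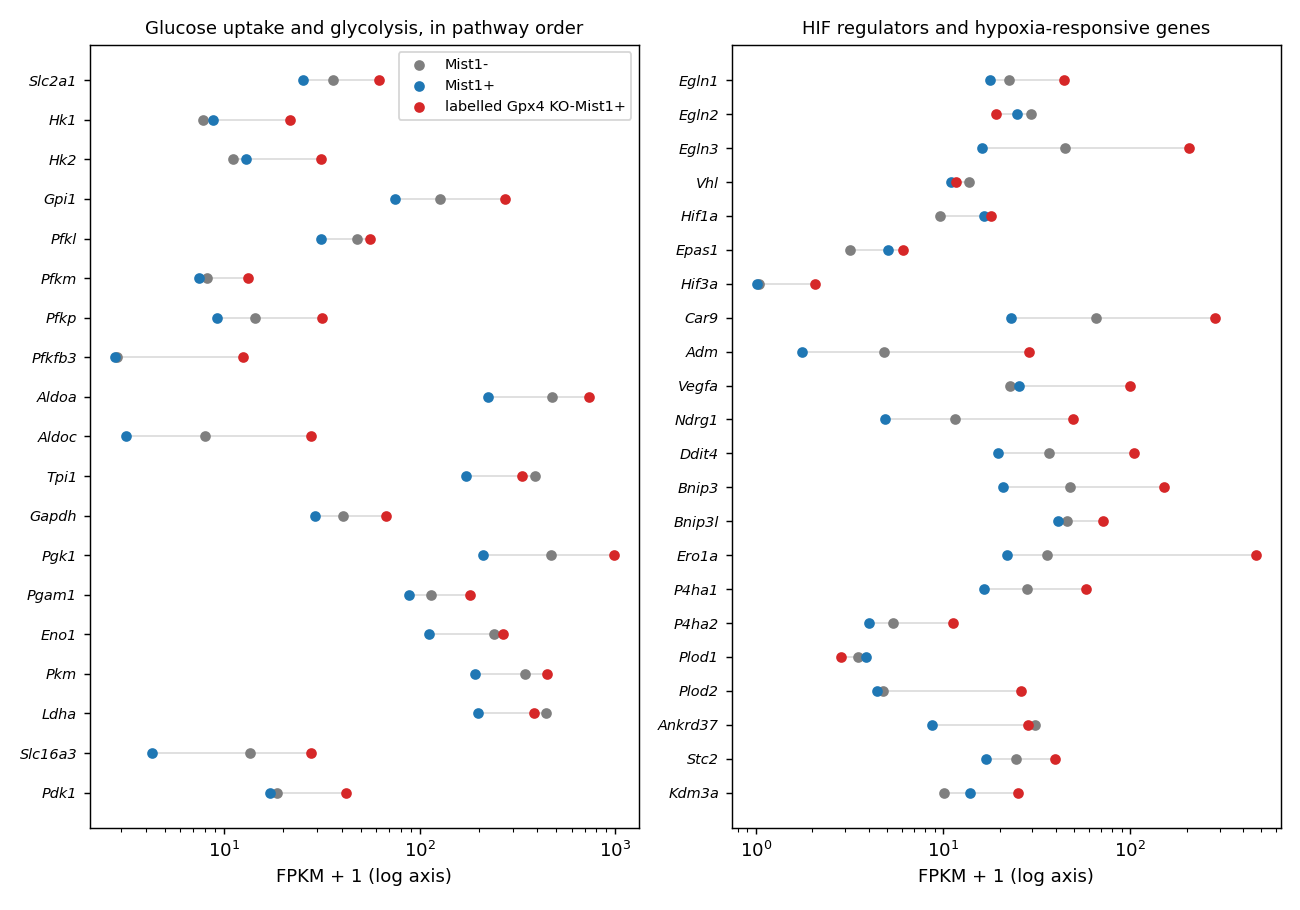
FPKM + 1 on a log axis for glycolysis genes in pathway order (left) and for HIF regulators and hypoxia-responsive genes (right), 1 point a library. The labelled knockout (red) stands farthest right for most genes, Mist1- (grey) often lies between, and Hif1a and Vhl show little difference between Mist1+ (blue) and the labelled knockout.

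Glycogen genes were apart in both directions. Of 17 that passed the filter 5 were called higher and 1 lower (median 0.36). Those higher were the glycogen synthase gene Gys1 (5.2, 5.99 and 15.98 FPKM), the phosphoglucomutase gene Pgm1 (61.7, 36.95 and 102 FPKM), the glycogen-binding Stbd1 (1.39, 0.78 and 9.42 FPKM) and the phosphatase-targeting subunits Ppp1r3b (1.8, 1.55 and 9.81 FPKM) and Ppp1r3c (0.52, 0.52 and 5.19 FPKM). Another such subunit, Ppp1r3a, went the other way. It was at 2.88, 18.7 and 1.83 FPKM, 10.2-fold lower (8.85 to 11.8) than in Mist1+ and close to Mist1-. The branching enzyme gene Gbe1 had a log2 ratio of 0.10 and the phosphorylase gene Pygb one of -0.22. Of the higher genes Stbd1 and Ppp1r3c passed the filter only through the labelled knockout. With a pseudocount of 5 the log2 ratios of Gys1 and Ppp1r3c were 0.93 and 0.88, below 2-fold.

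Mitochondrial energy genes showed no member past 2-fold. This held for all 22 citrate cycle genes (median 0.12), 23 nuclear genes of the respiratory chain (median -0.07, which turned to above 0 under median ratio scaling), 13 mitochondrially encoded genes (median -0.14) and 13 fatty acid oxidation genes (median -0.25). Ndufa4, a subunit linked to cytochrome oxidase, had the lowest ratio of the nuclear genes, at 204, 92.8 and 60.1 FPKM. Of the mitochondrially encoded genes 6 were above 0 and 7 below. Mitochondrially encoded genes share sequence with nuclear copies, and their counts are uncertain. The most abundant of them, mt-Co1, was at 9084, 11759 and 19782 FPKM. Genes of the pentose phosphate pathway and NADPH supply had a median of -0.20 and none of 12 past 2-fold. Its entry enzymes G6pdx and Pgd were at 75.3, 79.03 and 53.9 FPKM and 109, 79.9 and 48.4 FPKM, and the malic enzyme gene Me1 at 40.8, 29.1 and 56.4 FPKM.

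Lipid synthesis genes were mostly within 2-fold too. Of 20 genes of fatty acid and triglyceride synthesis 2 were called higher and 0 lower (median -0.02, above 0 under median ratio scaling). The higher pair was Hilpda, a hypoxia-inducible lipid droplet protein gene, at 10.9, 3.92 and 22.1 FPKM, and Acacb, the mitochondrial acetyl-CoA carboxylase, at 1.61, 1.85 and 6.29 FPKM. The fatty acid synthase gene Fasn was at 21.4, 45.2 and 27.3 FPKM. Of 25 cholesterol genes 1 was called higher and 0 lower (median -0.18), and 17 were below 0 (14 under median ratio scaling).

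Among glutathione genes the calls lay in the cystine and glutathione list and not among the peroxidases. None of 6 glutathione peroxidase genes that passed the filter reached 2-fold (median -0.06, above 0 under median ratio scaling). Gpx2, the abundant gastrointestinal form, was at 851, 457 and 481 FPKM, Gpx1 at 127, 59.8 and 49.4 FPKM and Gpx8, of the endoplasmic reticulum, at 79.3, 58.8 and 33.2 FPKM. Of 13 cystine and glutathione genes 4 were called higher and 0 lower (median 0.44, and 0.04 over members with an FPKM of at least 5). Slc7a11 and Slc3a2 encode the cystine importer, and they were at 5.24, 5.41 and 17.9 FPKM and 30.6, 23.4 and 50.3 FPKM. Cth, which makes cysteine from cystathionine, was at 6.91, 6.49 and 15.4 FPKM. With a pseudocount of 5 the log2 ratios of Slc3a2 and Cth were 0.96 and 0.83, below 2-fold. These steps raise cysteine, whereas Chac1, at 2.33, 0.87 and 7.79 FPKM, encodes an enzyme that splits glutathione. Chac1 passed the filter only through the labelled knockout. The genes that assemble and recycle glutathione differed little, with Gclc at 52.4, 78.8 and 80.9 FPKM, Gclm at 26.7, 24.4 and 24.1 FPKM, Gss at 40.4, 26.4 and 22.2 FPKM and Gsr at 121, 106 and 100.2 FPKM.

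Calls in the other redox lists stand beside 4.92% of all genes called higher and 2.81% called lower. Thioredoxin, peroxiredoxin and dismutase genes had none of 16 past 2-fold (median -0.15), with the glucose-sensitive inhibitor gene Txnip the highest (78.3, 101 and 197 FPKM) and catalase the lowest, with a log2 ratio of -0.56. Of 21 genes of selenoprotein synthesis and selenoproteins (median -0.10) only Selenbp1 passed 2-fold, at 51.8, 29.6 and 94.6 FPKM. It binds selenium but is not a selenocysteine protein. The list of NRF2 and its targets had Hmox1, heme oxygenase, as its 1 higher gene of 16 (13.1, 7.09 and 19.1 FPKM; median 0.11). Nqo1, another NRF2 target, was at 13.7, 4.18 and 9.03 FPKM, while Gstm1 and Gsta4 were lower than Mist1+ and short of 2-fold, at 559.5, 357 and 199 FPKM and 2341, 1249 and 644 FPKM. Nfe2l2, which encodes NRF2, was at 196, 186 and 125 FPKM. Among 19 genes of lipid peroxidation and ferroptosis control (median 0.22) the polyamine enzyme gene Sat1 (69.02, 37.2 and 83.98 FPKM) and Gch1, which starts tetrahydrobiopterin synthesis (4.27, 3.07 and 7.3 FPKM), were at least 2-fold higher and 0 lower. Acsl4, which primes membranes with polyunsaturated fat, was at 29.5, 41.8 and 64.8 FPKM. Aifm2, the gene of the ubiquinone reductase FSP1, was at 2.74, 2.89 and 3.74 FPKM, and the prostaglandin synthase gene Ptgs2, often used as a mark of ferroptosis, at 0.19, 0.47 and 1.27 FPKM.

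Iron handling held the protein-coding gene with the highest log2 ratio of the comparison, 5.21. Trf, transferrin, which carries iron in plasma, had 4285, 1462 and 56912 counts and 86.4, 27.2 and 1045 FPKM, and was 38.4-fold higher (36.5 to 40.5). Its FPKM in the labelled knockout exceeded that of Pgk1 there. Of 19 iron genes 6 were called higher and 0 lower, and the median was 0.19. The transferrin receptor gene Tfrc was at 15.8, 24.4 and 74.1 FPKM, the ferric reductase gene Cybrd1 at 62.6, 21.3 and 156 FPKM and Lcn2, lipocalin 2, which binds iron-carrying siderophores, at 3.21, 2.05 and 32.6 FPKM. These 3 act in iron uptake or withholding, and all stood above both other libraries. Fbxl5, the iron-sensing subunit that degrades Ireb2, was at 7.67, 9.79 and 22.1 FPKM, and the mitochondrial importer gene Slc25a37 at 8.26, 13.4 and 28.1 FPKM. The ferritin genes were not apart from Mist1+, with Fth1 at 280.2, 181 and 199.7 FPKM and Ftl1 at 1857, 820.1 and 905 FPKM. Ferritins have processed copies, so these counts are uncertain. The exporter gene Slc40a1 was at 1.33, 1.56 and 1.93 FPKM, the divalent importer gene Slc11a2 at 7.98, 9.51 and 8.43 FPKM and Ncoa4, the ferritin autophagy receptor, at 4.86, 9.08 and 16.3 FPKM. Metallothioneins, which bind zinc and copper, lay on the other side. Mt1 was at 1239.6, 606 and 272 FPKM and Mt2 at 2252, 1237 and 467 FPKM, the latter 2.65-fold lower (2.56 to 2.74) than in Mist1+. They were the 2 lower and there were 0 higher among 8 zinc genes (median -0.41).

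**Figure D4:**
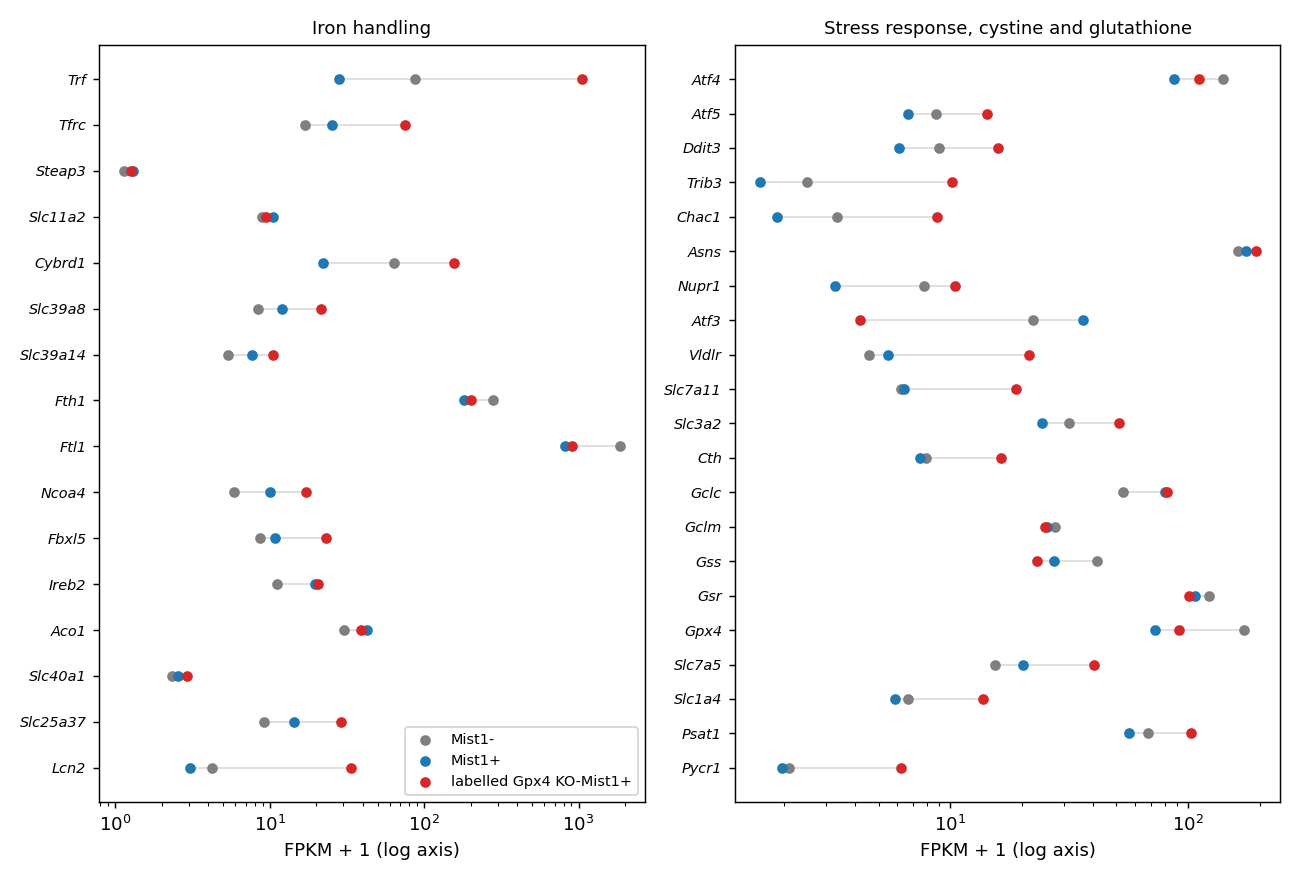
FPKM + 1 on a log axis for iron handling genes (left) and for stress response, cystine and glutathione genes (right), 1 point a library. Trf stands at 1045 FPKM in the labelled knockout against 27.2 FPKM in Mist1+, and Atf3 is the stress gene on the low side. The ferritin genes Fth1 and Ftl1 lie close together in Mist1+ and the labelled knockout, with Mist1- farther right.

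The integrated stress response was higher in many of its target genes, within 2-fold for its central factor Atf4, and lower for Atf3. In this response the kinases of eIF2 alpha slow translation and favour that of Atf4, which induces genes of amino acid supply and, with Ddit3, of cell stress. Of 15 genes 8 were called higher and 1 lower (median 1.10, 0.75 without a filter and 0.77 with a pseudocount of 5). Atf4 mRNA was at 139, 86.3 and 111 FPKM, and mRNA level does not report its translation. Its relatives Atf5 and Ddit3, the gene for CHOP, were at 7.72, 5.67 and 13.2 FPKM and 8.01, 5.08 and 14.9 FPKM. Trib3, a pseudokinase that dampens the response, was at 1.51, 0.58 and 9.16 FPKM, or 15.7-fold higher (10.03 to 26.1). Vldlr, a lipoprotein receptor, was at 3.56, 4.49 and 20.4 FPKM, and Nupr1, a small stress-induced nuclear protein gene, at 6.73, 2.29 and 9.46 FPKM. The cytokine gene Gdf15 was at 3.94, 1.87 and 9.35 FPKM. The 8 higher genes also include Chac1 and Stc2, given above, and apart from Vldlr all were lowest in Mist1+. Trib3 and Chac1 passed the filter only through the labelled knockout. With a pseudocount of 5 the log2 ratios of Atf5, Ddit3 and Nupr1 were 0.77, 0.98 and 0.99, below 2-fold. Asns, asparagine synthetase and a classic Atf4 target, was at 161, 175 and 192 FPKM and did not differ by 2-fold. Atf3 had 687, 1229 and 112 counts, or 21.3, 35.2 and 3.17 FPKM, and was 11.1-fold lower (9.15 to 13.6).

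The composite element that Atf4 binds with a C/EBP factor was searched as TGATGNAA on both strands of the same windows. It stood in 6 of 19 promoters of the stress response list (31.6%), in 3.45% of all promoters, in 1.91% of those of genes that passed the filter and in 2.52% of those of all higher genes. In the amino acid list it stood in 2 of 20 (10%). Of the stress response genes it stood in a promoter of 3 of the 8 higher ones (Chac1, Nupr1 and Vldlr), of Atf3, which was lower, of Asns, which was within 2-fold, and of Fgf21, which did not pass the filter. The windows of Trib3, Atf5, Ddit3, Stc2 and Gdf15, also higher, hold no match. The 30 bases around the match are shown for the 3 higher stress response genes and for Pycr1 of the amino acid list, with the match in capitals.
Chac1, chr2:119351038-119351067, plus strand: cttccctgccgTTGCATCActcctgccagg
Nupr1, chr7:126625562-126625591, minus strand: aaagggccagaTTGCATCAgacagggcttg
Pycr1, chr11:120643833-120643862, minus strand: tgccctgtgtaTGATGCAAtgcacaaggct
Vldlr, chr19:27216809-27216838, plus strand: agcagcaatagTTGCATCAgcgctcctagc

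Most amino acid genes were above Mist1+, by less than 2-fold in most. Of 21 that passed the filter 16 were above 0 (median 0.38, beside -0.10 for all genes). Among the 21, 2 were called higher and 0 lower, beside the 4.92% of all genes called higher. The calls were Pycr1, the last step of proline synthesis (1.11, 0.97 and 5.19 FPKM), and Slc1a4, a neutral amino acid transporter (5.66, 4.86 and 12.8 FPKM). Pycr1 passed the filter only through the labelled knockout, and with a pseudocount of 5 both were below 2-fold, at log2 ratios of 0.77 and 0.85. Slc7a5, which pairs with Slc3a2 to import leucine, was just short of 2-fold at 14.4, 19.3 and 39.4 FPKM. The serine pathway genes Phgdh and Psat1 were at 65.8, 48.6 and 77.1 FPKM and 66.9, 55.5 and 102 FPKM. None of 20 cytosolic tRNA synthetase genes was past 2-fold (median 0.15). Protein folding genes differed little: of 25 in the endoplasmic reticulum (median -0.16) only Ern2, the sensor of mucous cells also called IRE1 beta, was called, at 19.4, 60.1 and 14.4 FPKM and 4.17-fold lower (3.84 to 4.54). The chaperone gene Hspa5, or BiP, was at 364, 306 and 282 FPKM, and Xbp1, the factor that IRE1 splices, at 107, 108 and 209.7 FPKM. The 16 cytosolic and mitochondrial chaperone genes had none past 2-fold and a median of -0.20.

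Immediate-early genes, which respond to growth factors and to handling of cells within minutes, were apart in opposite directions. Of 23 that passed the filter 3 were called higher and 4 lower (median -0.35). Fosb was at 19.9, 61 and 14.2 FPKM and 4.301-fold lower (4.06 to 4.56), whereas Fos was at 236, 281 and 244 FPKM. The other lower genes were Egr3 (1.28, 2.92 and 0.69 FPKM), Klf2 (2.35, 3.28 and 0.92 FPKM) and Nr4a2 (4.15, 8.68 and 3.79 FPKM). On the high side stood Ier3, a survival gene (70.1, 28.9 and 128 FPKM), the small Maf gene Maff (6.47, 4.24 and 17.3 FPKM) and Klf10 (5.78, 6.67 and 16.1 FPKM). Egr3 and Klf2 passed the filter only through Mist1+. The log2 ratios of Egr3, Klf2, Nr4a2 and Klf10 were -0.48, -0.48, -0.64 and 0.86 with a pseudocount of 5, below 2-fold. How soon after handling each culture was lysed is not given in the sources used here. Of 12 feedback inhibitors of MAP kinase signalling 2 were called higher and 0 lower (median 0.35), namely the phosphatase genes Dusp4 (4.23, 6.18 and 23.4 FPKM) and Dusp6 (15.7, 19.3 and 47.8 FPKM).

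Ligand genes showed a few large differences. The counts of calls that follow stand beside 4.92% of all genes called higher and 2.81% called lower. Areg, amphiregulin, was the 1 called among 10 EGF family genes (median 0.27), at 11.5, 3.25 and 12.6 FPKM, which is near its Mist1- level. Of 17 other growth factor genes (median 0.59) Igfbp3 (8.49, 4.99 and 29.7 FPKM) and Vegfa were higher, and Igfbp5 (5.41, 12.9 and 3.6 FPKM) and the endothelin gene Edn1 (12.7, 17.01 and 5.02 FPKM) lower. Of 23 cytokine and NF-kB feedback genes 3 were called higher and 1 lower (median 0.14). The alarmin gene Il33 was at 43.1, 16.4 and 107 FPKM, Tnf at 6.65, 3.2 and 8.48 FPKM and Il1a at 1.69, 0.25 and 1.7 FPKM, while Il18 was at 37, 28.3 and 10.2 FPKM. Il1a passed the filter only through the labelled knockout. The log2 ratios of Il1a and Tnf were 0.35 and 0.72 with a pseudocount of 5, below 2-fold. The feedback inhibitor gene Nfkbia was at 28.1, 22.4 and 39.5 FPKM. Prostaglandin enzymes held 1 large value. Ptges, the terminal prostaglandin E2 synthase, had 12, 4 and 786 counts and 0.2, 0.06 and 12.2 FPKM, or 194-fold higher (75.5 to 714). Ptges too passed the filter only through the labelled knockout. The prostaglandin-degrading enzyme gene Hpgd was at 8.83, 9.98 and 3.3 FPKM, the secreted phospholipase gene Pla2g10 at 14.9, 10.2 and 2.27 FPKM and the leukotriene enzyme gene Lta4h at 46.4, 43.9 and 19.5 FPKM, the 3 lower members of 11 (median -0.21). None of 13 interferon response genes was called (median -0.26). Of 12 antigen presentation genes (median -0.21) H2-T23 was higher (24.5, 14.2 and 31.4 FPKM) and the proteasome subunit gene Psmb10 lower (25.2, 15.5 and 6.15 FPKM).

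The cultures were checked against cell type markers. All 11 epithelial identity genes passed the filter, with Epcam at 427, 351 and 397 FPKM and Cldn18, the gastric claudin, at 548, 584 and 429 FPKM, and only Krt7 was past 2-fold (93.2, 46.1 and 112 FPKM; median -0.17). Of 19 markers of stromal, endothelial, muscle and immune cells 1 passed. That was Cd68, a lysosomal protein of macrophages, at 4.37, 5.06 and 24.4 FPKM. The summed FPKM of the 19 was 4.75, 5.48 and 24.7, nearly all of it Cd68. Ptprc, Cd3e, Ms4a1, Pdgfra and Des were at 0 in all 3 libraries, Csf1r at 0.03, 0.01 and 0.01 FPKM and Lyz2 at 0.05, 0.05 and 0 FPKM. Enteroendocrine markers were also near 0, with none of 12 passing and sums of 0.54, 0.53 and 0.42 FPKM. In bulk RNA fewer cells of a type and less RNA per cell cannot be told apart, which holds for every lineage below.

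Chief cell genes were below Mist1+ throughout. All 5 of 9 that passed the filter had a log2 ratio under 0 (median -0.71). Cckar, the cholecystokinin receptor, had 761, 2860 and 119 counts, or 13.8, 47.99 and 1.97 FPKM, and was 24.3-fold lower (20.3 to 29.5), below Mist1- as well. Rab3d, of secretory granules, was at 70.3, 93.7 and 48.2 FPKM, intrinsic factor, Cblif, at 403, 823 and 502 FPKM and pepsinogen C, Pgc, at 1539, 2579 and 2084 FPKM. None of these 3 reached 2-fold, and for Cblif and Pgc the labelled knockout lay between Mist1- and Mist1+. Pga5, Lipf and Chia1, which mark mature chief cells, were at 0 in all 3 libraries.

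Several mucous neck genes were higher, and Muc6 and A4gnt were not. Of 6 that passed the filter 4 were called higher and 0 lower (median 1.07). The water channel gene Aqp5 was at 146, 97.2 and 568 FPKM, Gkn3 at 861, 624 and 1319.5 FPKM, Glipr1 at 23.7, 11.8 and 30 FPKM and the trefoil peptide gene Tff2 at 178, 52.5 and 111 FPKM. Tff2 in the labelled knockout was below Mist1-. Muc6, the gland mucin, was at 5.71, 19.96 and 20.6 FPKM, and A4gnt, which caps its glycans, at 8.37, 22.3 and 13.9 FPKM. Of 8 pit cell genes 4 passed (median -0.24). Gkn2 was at 33.5, 5.02 and 1.16 FPKM, Gkn1 at 22.2, 2.22 and 1.37 FPKM and Tff1 at 657, 90.6 and 87.7 FPKM, all far below Mist1-. Gkn1 and Gkn2 were below Mist1+ too, while Tff1 turned to slightly above it under median ratio scaling. Gkn2 was the lower call, and Psca the higher one at 26.8, 13.2 and 44.96 FPKM. The pit mucin gene Muc5ac did not pass, at 0.22, 0.14 and 0.18 FPKM. Parietal cell genes had 4 of 9 passing and none past 2-fold (median -0.07, above 0 under median ratio scaling and on CPM), and the proton pump gene Atp4b was at 0 in all 3.

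Metaplasia markers were higher in most members. Of 12 outside the neck list 7 were called higher and 0 lower (median 1.11, and 0.57 with a pseudocount of 5). Besides Lcn2, the microvillus gene Vil1 was at 32.8, 14.2 and 84.95 FPKM, the hyaluronan receptor gene Cd44 at 29.8, 29.9 and 113 FPKM, Olfm4 at 11.6, 4.73 and 15.4 FPKM and the scavenger receptor gene Dmbt1 at 0.47, 0.54 and 2.69 FPKM. Wfdc2 and the membrane mucin gene Muc4 were at 494, 181 and 393 FPKM and 0.8, 3.03 and 7.69 FPKM. Dmbt1 passed the filter only through the labelled knockout. The log2 ratios of Dmbt1 and Muc4 were 0.47 and 0.66 with a pseudocount of 5, below 2-fold. Wfdc2 and Olfm4 were low in Mist1+, so that the labelled knockout lay below Mist1- for the first and only somewhat above it for the second. Sox9, Cftr and Cd14 were not apart from Mist1+, and Clu was below it with 5191, 4924 and 3246 FPKM. Intestinal genes had 6 of 14 passing (median -0.44), of which Lyz1 (2.01, 0.78 and 6.47 FPKM) and Gpa33 (6.44, 5.75 and 15.8 FPKM) were called. Lyz1 passed the filter only through the labelled knockout, and both Lyz1 and Gpa33 were below 2-fold with a pseudocount of 5. Cdx1 was at 0 in all 3 libraries and Cdx2 at 0, 0 and 0.19 FPKM.

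A few squamous and Ly6 genes were far higher, while basal squamous genes were at or near 0. Of 21 squamous genes 7 passed and 4 were at least 2-fold higher (median 1.84, 0.53 on TPM and 1.22 on CPM). Without a filter, over all 21, the median was 0. Of the 4, Cnfn and Krt4 passed only through the labelled knockout. Cnfn, cornifelin, had 5, 0 and 242 counts, which against a floor of 3 counts in Mist1+ is at least 79.6-fold higher, and its 95% counting interval starts at 64.3-fold. The cornified envelope precursors Sprr1a and Sprr2a1 were at 22.1, 8.74 and 83.8 FPKM and 37.4, 8.31 and 32.4 FPKM, and the keratin gene Krt4 at 1.54, 0.98 and 9.49 FPKM. Sprr2a1 has near-identical copies and is uncertain. Trp63, Krt6b and Krt17 were at 0 in all 3 libraries, and Krt5 was at 0, 0 and 0.03 FPKM. Of 13 Ly6 family genes, which include Psca, 7 passed and 4 were called higher and 1 lower. Their median was 1.69, but 0.95 on CPM and 0.18 on TPM, whose own filter keeps more genes. Ly6a, the surface antigen Sca-1, was at 108, 15.2 and 209 FPKM and 13.7-fold higher (12.2 to 15.5) than in Mist1+. Ly6d and Ly6c1 were at 6.75, 1 and 22.5 FPKM and 3.75, 1.47 and 12.4 FPKM, and Lypd6b, the lower member, at 10.3, 10.4 and 3.77 FPKM. Neighbouring Ly6 genes are similar in sequence, so Ly6a and Ly6c1 counts may share reads.

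**Figure D5:**
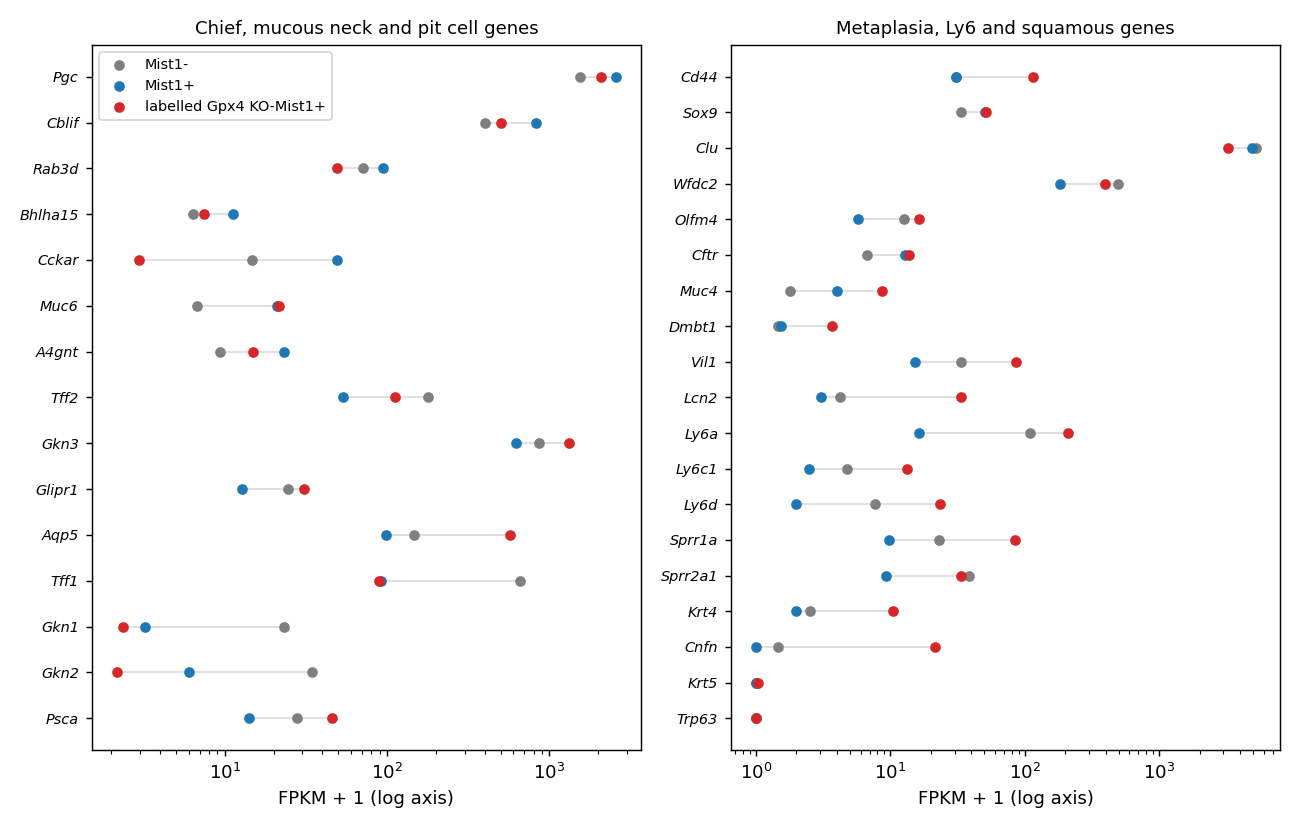
FPKM + 1 on a log axis for chief, neck and pit cell genes (left) and for metaplasia, Ly6 and squamous genes (right), 1 point a library. Cckar lies far left in the labelled knockout (red), Aqp5, Cd44, Vil1 and Lcn2 far right, and Krt5 and Trp63 stay at the left edge in all 3.

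Gastric transcription factor genes had 17 of 20 below 0 (14 under median ratio scaling) and a median of -0.33. Creb3l4 (17.5, 18.9 and 6.39 FPKM) and Hnf4g (0.99, 2.22 and 0.31 FPKM) were at least 2-fold lower. Foxa1 was at 95.8, 154 and 87.4 FPKM, Gata4 at 31.6, 59.6 and 33.1 FPKM and Sox2 at 24.9, 29.2 and 23.8 FPKM, with Pdx1, the antral factor, at 2.79, 1.35 and 2.66 FPKM.

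Among Wnt signalling genes several targets and single ligands were higher. Wnt ligands bind Fzd and Lrp receptors and stabilise beta-catenin, and Lgr receptors with R-spondin strengthen the signal. Of 20 ligand, receptor and inhibitor genes 3 were called higher and 1 lower (median 0.29, and 0.02 without a filter). Wnt7b was at 0.56, 0.26 and 3.4 FPKM, Wnt10a at 2.17, 0.93 and 3.63 FPKM and Lgr5 at 6.4, 10.9 and 37.01 FPKM. Wnt4 was the lower one (4.13, 2.06 and 0.41 FPKM), and Lgr4, the more abundant Lgr gene, was at 27.7, 55.3 and 38.7 FPKM. Wnt7b and Wnt10a passed the filter only through the labelled knockout, and Wnt4 only through Mist1+. With a pseudocount of 5 the log2 ratios of Wnt7b, Wnt10a and Wnt4 were 0.68, 0.54 and -0.38, below 2-fold. Among the 13 target genes 6 were called higher and 1 lower (median 0.99, and 0.52 without a filter). Sp5 was at 16.4, 12.3 and 32.2 FPKM, Tnfrsf19 at 16.4, 28.1 and 77.3 FPKM, Ascl2 at 4.74, 2.06 and 7.52 FPKM and Nkd1 at 0.46, 0.46 and 2.77 FPKM, besides Cd44 and Ccnd1. Axin2, at 2.78, 5.71 and 12.3 FPKM, was just short of the line with a log2 ratio of 0.99. Smoc2, a stem cell gene of the intestine, was on the other side at 1.89, 7.45 and 1.64 FPKM. Nkd1 passed the filter only through the labelled knockout. With a pseudocount of 5 the log2 ratios of Ascl2, Nkd1 and Smoc2 were 0.83, 0.51 and -0.91, below 2-fold.

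Notch, BMP and TGF-beta genes held a few calls of low level. Of 14 Notch genes Notch3 (0.6, 1.44 and 4.18 FPKM), Jag2 (3.81, 4.13 and 9.43 FPKM) and the feedback gene Nrarp (1.71, 1.72 and 4.46 FPKM) were higher and 0 lower (median 0.12), while the target gene Hes1 was at 59.99, 49.9 and 53.2 FPKM. Of 17 BMP and TGF-beta genes 6 were called higher and 1 lower (median 0.45). The higher genes encode ligands. Tgfb3 was at 9.3, 12.2 and 54.8 FPKM, Tgfb1 at 1.08, 0.94 and 3.62 FPKM, Bmp4 at 2.59, 0.77 and 4.91 FPKM and Bmp2 at 2.52, 2.73 and 8.96 FPKM, followed by Bmp8b at 0.28, 0.38 and 2 FPKM and Inhbb, given above. Tgfb1, Bmp4, Bmp8b and Inhbb were below 1 FPKM in Mist1+ and passed the filter only through the labelled knockout. With a pseudocount of 5 Tgfb3 alone of the 6 stayed past 2-fold. Of the BMP target genes, Id1 was at 41.4, 16.4 and 15.4 FPKM and Id3, the lower call, at 4.11, 1.79 and 0.34 FPKM. Of 20 YAP pathway genes Ccn2 (49.8, 32.3 and 133 FPKM), Anxa3 (165, 94.95 and 196 FPKM) and Tead4 (1.9, 2.15 and 5.44 FPKM) were higher and 0 lower (median -0.04, above 0 under median ratio scaling). Ccn1, another YAP target, was at 49.9, 66.4 and 72.3 FPKM.

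Proliferation genes were below Mist1+ in nearly every member, by less than 2-fold in most. All 32 DNA replication genes had a log2 ratio below 0 (median -0.79, 7 at least 2-fold lower), and for 29 of them the labelled knockout was the lowest of the 3 libraries. The cyclin E genes Ccne1 and Ccne2, which start S phase, were at 11.5, 11.4 and 3.8 FPKM and 6.95, 10.5 and 3.86 FPKM. The E2F genes E2f2 and E2f8 were at 3.47, 4.71 and 1.21 FPKM and 8.03, 20.5 and 7.93 FPKM. Both pairs were among the 7, with the helicase subunit gene Mcm5, the licensing gene Cdc6 and the flap nuclease gene Fen1. Pcna, the polymerase clamp, was at 172, 124 and 71.8 FPKM. Mitosis genes were below 0 in all 27 (24 under median ratio scaling) with a smaller median, -0.45, and Plk1 as the 1 call (54.1, 86.8 and 39.2 FPKM). Mki67 was at 46.3, 82.5 and 66.03 FPKM, above Mist1-, and the labelled knockout was the lowest library for 17 of the 27. Replication-dependent histone genes had 15 of 67 passing, 3 lower and a median of -0.68 (-0.15 without a filter). Of the 15, 9 passed the filter only through Mist1+, and the 3 lower genes were among those 9. Histone gene copies are near-identical and their mRNAs lack poly(A) tails, so these counts are uncertain.

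G1 regulators differed on both the driving and the braking side. Of 16 such genes 4 were called higher and 0 lower (median 0.20). Cyclin D1, Ccnd1, was at 38.3, 46.5 and 106 FPKM. The inhibitor genes were at 17.2, 10.1 and 38.3 FPKM for Cdkn1a, or p21, 12.1, 1.32 and 10.7 FPKM for Cdkn2a and 12.4, 7.24 and 17.4 FPKM for Cdkn2b. For Cdkn2a the labelled knockout was close to Mist1- and Mist1+ was the low library. Of 25 p53 targets 22 were above 0 and 4 at least 2-fold higher (median 0.46). These were Cdkn1a, Gdf15, Eda2r (2.79, 3.92 and 13.01 FPKM) and Phlda3 (34.8, 15.2 and 32.8 FPKM), and Gdf15 and Cdkn1a are in other lists as well. Mdm2 was at 19.6, 20.9 and 31.2 FPKM and Trp53 itself at 23.6, 29.2 and 18.2 FPKM. DNA repair genes had none of 20 past 2-fold and 19 below 0, or 18 under median ratio scaling (median -0.33). Of 23 cell death genes only Bnip3 was called (median -0.03, above 0 under median ratio scaling and on CPM), with the gasdermin gene Gsdmd at 72.9, 58.5 and 98.7 FPKM.

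Several genes of the cell surface and matrix were higher. Of 15 matrix genes 5 were called higher and 1 lower (median 0.67). All 5 encode basement membrane proteins, the laminin genes Lama5 (9.56, 21.96 and 61.8 FPKM) and Lamb1 (0.33, 0.57 and 2.8 FPKM), the nidogen gene Nid2 (0.54, 1.56 and 5.22 FPKM) and the collagen genes Col4a2 (0.69, 0.87 and 3.15 FPKM) and Col18a1 (26.8, 30.1 and 66.4 FPKM). Lamb1 and Col4a2 passed the filter only through the labelled knockout. With a pseudocount of 5 the log2 ratios of Lamb1, Nid2 and Col4a2 were 0.49, 0.64 and 0.47, below 2-fold. Without a filter the median of the matrix list was 0.26. Thbs1, thrombospondin 1, was the lower one, at 18.9, 62.5 and 13.7 FPKM and 4.55-fold lower (4.29 to 4.83), which put the labelled knockout near Mist1-. Of 14 integrin genes (median 0.38) Itga2 was higher (8.17, 10.9 and 27.8 FPKM) and Itgb8 lower (0.83, 3.49 and 0.32 FPKM). Extracellular proteases and inhibitors had 5 of 12 higher and 0 lower (median 0.74). Among them were the serpin genes Serpinb5 (9.78, 2.85 and 11.6 FPKM) and Serpinb6b (9.5, 5.52 and 13.1 FPKM), Plat, the tissue plasminogen activator (9.47, 8.02 and 23.5 FPKM), and the metalloprotease inhibitor gene Timp3 (0.13, 0.17 and 1.64 FPKM). Of the 5 higher genes 2 passed the filter only through the labelled knockout, Timp3 among them. None of 15 tight junction genes was called (median -0.11).

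Membrane, mucin and cytoskeleton genes held scattered calls. Of 15 ion transport genes 1 was called higher and 1 lower (median -0.16), and the chloride channel gene Slc26a9 was at 0.64, 0.24 and 4.13 FPKM. Mucins and secretory factors had 4 called higher and 1 lower among 12 genes (median 0.54). All 4 higher genes encode glycosyltransferases, St3gal4 (7.05, 3.97 and 21.5 FPKM), Gcnt1 (4.24, 3.59 and 16.5 FPKM), Gcnt3 (13.5, 5.14 and 20.3 FPKM) and Galnt6 (8.94, 7.84 and 17 FPKM). Muc1, the membrane mucin, was lower at 599.5, 753 and 359 FPKM. Of 15 S100 and annexin genes 5 were called higher and 0 lower (median 0.30), with S100a14 at 2.44, 0.72 and 9.46 FPKM, Anxa8 at 13.8, 6.31 and 37.1 FPKM and S100a6 at 258, 51.3 and 128 FPKM, followed by the partners S100a10 and Anxa2, which form a complex, at 142, 40.2 and 131 FPKM and 273, 105 and 217 FPKM. For S100a6 the labelled knockout was still below Mist1-, and S100a14 passed the filter only through the labelled knockout. Among 19 cytoskeleton genes 3 were called higher and 1 lower (median -0.08, above 0 under median ratio scaling). The tropomyosin gene Tpm2 was at 0.94, 0.21 and 5.53 FPKM, the myosin light chain gene Myl9 at 3.92, 0.32 and 3.31 FPKM and the tubulin gene Tuba1a, the lower one, at 15.8, 6.65 and 1.08 FPKM. Tpm2 and Myl9 passed the filter only through the labelled knockout. The log2 ratios of Myl9 and Tuba1a were 0.64 and -0.94 with a pseudocount of 5, below 2-fold. Alpha-tubulin genes are close to each other in sequence, and single counts are uncertain.

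Growth and turnover genes differed by small amounts with a common sign in several lists. Ribosome biogenesis genes had 20 of 22 below 0 (median -0.55) and Bop1 as the 1 lower call (24.1, 22.6 and 9.57 FPKM), whereas Myc, which drives them, was at 34.4, 35.9 and 59.9 FPKM. Cytosolic ribosomal protein genes were above Mist1+ in 78 of 80 without Rpl29, with a median of 0.38 (range -0.45 to 0.77), and none reached 2-fold. The labelled knockout was the highest of the 3 libraries for 0 of them, and in each of the 78 Mist1- was the highest. Processed copies make single ribosomal protein counts uncertain. Proteasome genes had 22 of 23 below 0 (19 under median ratio scaling) and no call (median -0.29). Lysosome and autophagy genes had no call among 25 (median 0.05). Xenobiotic and retinoid genes had 4 called higher and 0 lower among 20 (median 0.31). Cyp1b1 was at 0.06, 0.11 and 6.35 FPKM, Cyp2s1 at 18.3, 11.8 and 50.6 FPKM and the retinoic acid hydroxylase gene Cyp26b1 at 1.45, 0.93 and 3.27 FPKM, with Gstt1 at 14.8, 9.82 and 34.5 FPKM. Of 14 clock genes 3 were called higher and 0 lower (median 0.58). Dbp was at 1.97, 2.64 and 11.7 FPKM, Nr1d1 at 2.89, 4.84 and 11.99 FPKM, and Arntl, which oscillates opposite to Nr1d1, was at 2.99, 5.15 and 3.54 FPKM. The hour at which cultures were lysed is not given in the sources used here.

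Outside the lists, the protein-coding genes with the highest and lowest ratios were of mixed function. Among the 15 highest, Lrg1, a secreted glycoprotein, was at 10.7, 3.03 and 46.4 FPKM and the TNF-induced gene Tnfaip2 at 4.77, 1.54 and 26.5 FPKM. Tigit, known as an inhibitory receptor of lymphocytes, had 29, 12 and 248 counts, although Cd3e and Ptprc were at 0. Among the 15 lowest were enzymes of digestion. The protease gene Cym, chymosin, had 278, 421 and 10 counts, or 15.1, 21.04 and 0.49 FPKM, and was 42.6-fold lower (22.96 to 89.6). Clps, the cofactor of pancreatic lipase, was at 391, 316 and 69.2 FPKM and 4.56-fold lower (4.200 to 4.96). Both were similar in Mist1- and Mist1+ and low in the labelled knockout alone of the 3. The others were Emb, a cell surface partner of lactate transporters (10.8, 13.5 and 1.77 FPKM), Cyp2c65 (9.27, 7.08 and 0.6 FPKM), Clstn2 (1.52, 5.72 and 0.35 FPKM), Fxyd6 (3.32, 6.32 and 0.73 FPKM) and the lectin gene Lgals2 (34.6, 14.2 and 2.68 FPKM). Rpl29 and Cwc22 also ranked there, with 12706, 5584 and 225 counts and 2593, 3817 and 755 counts. Both genes have near-identical copies elsewhere in the genome, so their counts are uncertain.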

How the data were processed

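RNA of 3 cultures was sequenced on an Illumina HiSeq X10 from total RNA whose quality was read on an Agilent instrument. Per the submitters' processing notes, cutadapt 1.9.1, HISAT2 2.2.1 and HTSeq 0.6.1 were used with GRCm38.p5. Their settings, strand use and annotation release are not given in the sources used here, so reads of overlapping and antisense genes cannot be told apart. Per the file headers the deposited table gives for each library whole-number counts per gene. It also gives FPKM, which the authors derived from those counts; count divided by exonic length and column total matched it within 2.77% for genes with at least 50 counts.

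Genes whose FPKM reached 1 in Mist1+ or Gpx4 KO-Mist1+ were compared by the log2 ratio of FPKM plus a pseudocount of 1, and 2-fold differences were counted. Folds are of counts scaled to column totals of 14943918 (Mist1-), 16187378 (Mist1+) and 16396693, with 95% intervals from the binomial split. A count of 0 was replaced by a floor of 3 counts. Intervals and floors cover counting error only, since the reads are not independent molecules. With 1 library a group no test was made.

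The members and the 70 lists were chosen with earlier results of these data known. A list's median was given only where at least 4 members passed the filter, a minimum chosen after seeing the data. Named genes are Gpx4, Bhlha15, list members, and the 15 highest and 15 lowest protein-coding genes (GENCODE M21) that had a gene name and, in the higher library, an FPKM of at least 5 and 50 counts. Some genes that this rule takes are not reported here. Promoters are 250 bases before the start sites of RefSeq, GRCm38.p6. The alternatives were other pseudocounts, filters, scalings and cutoffs, protein-coding genes alone, calls by the counting interval and removal of a trend on exonic length. The counting was tested on simulated data. Tools were Python 3.11.15, pandas 2.3.3, numpy 2.4.6, matplotlib 3.10.9, statsmodels 0.14.6 and scipy 1.17.1.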

Additional observations from a re-analysis of the deposited data

How the results depend on the processing

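The 642 higher and 366 lower genes became 992 and 725 with a pseudocount of 0.1, 226 and 70 with one of 5, 370 and 190 at an FPKM of at least 5, and 1348 and 1100 on TPM, whose own filter kept 16426 genes. They were 1401 and 1497 at 1.5-fold and 120 and 31 at 4-fold. The lower genes alone moved to 204 among protein-coding genes and to 197 where the whole counting interval had to lie beyond 2-fold. Without a filter, under median ratio scaling, on CPM and with the length trend removed both counts stayed within 1.5 times those values. The Gpx4 fold was 1.37 with median ratio scaling of the counts and 1.37 with upper quartile scaling, so it was above 1 in each setting run. Of 68 list medians 12 turned sign in at least 1 setting. Of these, 2 had a size of at least 0.25, interferon response genes (-0.26, then 0.03 without a filter) and intestinal genes (-0.44, then 0.01). In 7 lists the median moved by 0.5 or more in a setting. It went from 1.84 to 0 without a filter for squamous genes (0.53 on TPM), from 1.69 to 0.18 on TPM for Ly6 genes, from 1.11 to 0.57 with a pseudocount of 5 for metaplasia markers, and from -0.21 to -0.88 at an FPKM of at least 5 for prostaglandin and leukotriene enzymes. Without a filter it went from 0.74 to 0.20 for extracellular proteases and inhibitors, from 0.59 to 0.08 for other growth factors and from -0.68 to -0.15 for replication-dependent histones. The cystine and glutathione median went from 0.44 to 0.04 at an FPKM of at least 5. Of 305 named genes 6 turned sign, none of size 0.25 or more. Under median ratio scaling the log2 ratios that ended below 2-fold were -0.96 for Cdc6, -0.95 for Muc1 and -0.92 for Nr4a2. No paired analysis was possible because each group has 1 library. Depth limits genes of few counts: 3 counts on 1000 bases are an FPKM of 0.185 in Mist1+ and 0.183 in the labelled knockout.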
